A study of Mus musculus with 32 samples.

Results

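Whole-blood gene expression was compared directly between irradiated ATM-deficient mice (ATM-KO 4 Gy) and irradiated wild-type mice (WT 8 Gy). The 11 arrays were chosen by sample title alone, 6 titled ATM-KO 4 Gy and 5 titled WT 8 Gy, out of 32 arrays in the series, and the comparison was made over the 15162 genes that passed the detection filter. All mice were male C57BL/6, the ATM-KO animals carried the genotype ATM-/-, and the dose was 4 Gy of X-rays in ATM-KO and 8 Gy in WT. The series design describes these as doses of equal lethality for the genotypes, so genotype and dose change together and cannot be told apart here. Blood was taken by cardiac puncture 24 h after exposure into a stabilising lysis solution, its RNA was depleted of globin transcripts, and each mouse gave 1 Agilent 1-colour array. The 0 Gy groups (ATM-KO, n = 5, and WT, n = 6) served as a second contrast of the same genotypes, and the 10 Scid arrays of the series entered only the estimate of the spread.

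ATM is the kinase that senses DNA double-strand breaks and activates the transcription factor p53, which in turn switches on genes for cell-cycle arrest, DNA repair and cell death. Red cell precursors are among the dividing cells of the bone marrow that radiation depletes, and the youngest red cells in the circulation, the reticulocytes, still carry RNA for the membrane, iron and haem proteins of the lineage. In bulk blood, fewer cells of a type and less RNA per cell cannot be told apart.

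The labelled tissue matched its markers, since the alpha-globin gene Hba-a1, the neutrophil gene S100a8, the platelet gene Pf4, the T cell gene Cd3e and the B cell gene Cd79a were well above background on all 11 arrays. The Atm label could not be checked, because the 2 Atm probes were well above background on 0 of 6 ATM-KO 4 Gy arrays, and on 0 and 1 of 5 WT 8 Gy arrays. The arrays of both groups differed in brightness. The 75th percentile of the processed signal ran from 17.7 to 111 scanner units in ATM-KO 4 Gy and from 127 to 232 in WT 8 Gy, so the groups did not overlap. The share of probes well above background was 35.5 ± 9.40% in ATM-KO 4 Gy and 52.3 ± 5.45% in WT 8 Gy (SD, n = 6 and 5), a difference of -16.7 percentage points (two-sided exact permutation test over 462 splits, p = 0.00866). Liver transcripts were brightest on ATM-KO 4 Gy replicate 3 and WT 8 Gy replicates 1 and 2, where Alb, which encodes serum albumin, lay at 9.81, 8.97 and 9.76 on the scaled log2 axis. On the other arrays Alb ran from -3.48 to 6.39 in ATM-KO 4 Gy and from -1.42 to 3.41 in WT 8 Gy. The 6.39 was in ATM-KO 4 Gy replicate 5, whose mean level over the hepatocyte genes was 5.21. That array was kept in the fit below that leaves out the liver-bright arrays. The 11 arrays were spread over 4 scan days and 7 slides. Day 1 held 1 array of each group and day 2 held 4 ATM-KO and 3 WT arrays, while the remaining ATM-KO array and the remaining WT array each had a day of their own.

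**Figure D1:**
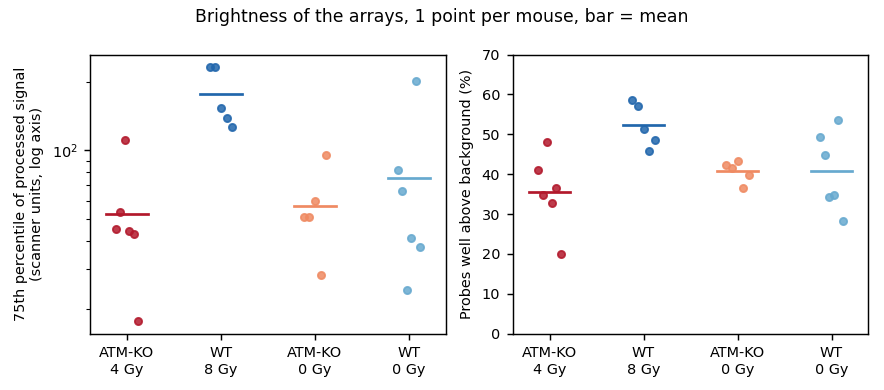
The 75th percentile of the processed signal in scanner units (left, log axis) and the percent of probes well above background (right) for each array of the ATM-KO 4 Gy, WT 8 Gy, ATM-KO 0 Gy and WT 0 Gy groups, with bars at the group means. The 75th percentile is at most 111 in ATM-KO 4 Gy and at least 127 in WT 8 Gy.

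Of 15162 genes, 82 differed between ATM-KO 4 Gy and WT 8 Gy at an adjusted p under 0.05 (0.541% of genes tested), 78 of them higher (0.514%) and 4 lower (0.0264%) in ATM-KO 4 Gy. Values are log2 signals less each array's 75th percentile, differences are log2 ATM-KO 4 Gy minus WT 8 Gy, and adjusted p-values are from limma over all genes, with 1815 genes at an unadjusted p under 0.05. The higher genes spanned differences of 1.31 to 4.04 with a median of 2.14, against a median of -0.06 over all genes tested. Of the 78 higher genes 57 were well above background on all 11 arrays, so differences of the others include values near background. In 65 of the 78 every ATM-KO 4 Gy array lay above every WT 8 Gy array, as in 1.62% of all genes, and in 1 of the 4 lower genes every array lay below, as in 0.33% of all genes. The calls were made on these same arrays, so such separation is partly built into them. The smallest adjusted p was 0.0178, so the calls sit near the threshold. Leaving out ATM-KO 4 Gy replicate 6, WT 8 Gy replicate 1 or WT 8 Gy replicate 2 left no call (limma, with 1274, 1272 and 1385 genes at an unadjusted p under 0.05). Without ATM-KO 4 Gy replicates 1, 2, 3 and 5 in turn 30, 40, 197 and 38 genes were called, and without WT 8 Gy replicates 3 and 4 in turn 25 and 47. None was called either without the 3 arrays with the brightest liver transcripts and WT 0 Gy replicate 5, where they were bright too. All 82 genes kept their direction in each of these fits. The split of higher and lower calls moved with the scaling. Quantile normalization gave 141 higher and 35 lower genes, scaling to the probes detected on all arrays gave 138 and 31, scaling to spike-in probes gave 2 and 14353, with the median of all genes at -2.33, and normexp background correction gave 0 and 7. Scaling to the array median and the authors' deposited normalized values gave no call (limma, 2373 and 2546 genes at an unadjusted p under 0.05), and a fit on the 11 irradiated arrays alone gave 3 and 0. Of 26 other kept probes of the called genes, 4 had the opposite sign, 1 of them at an unadjusted p under 0.05 (limma).

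**Figure D2:**
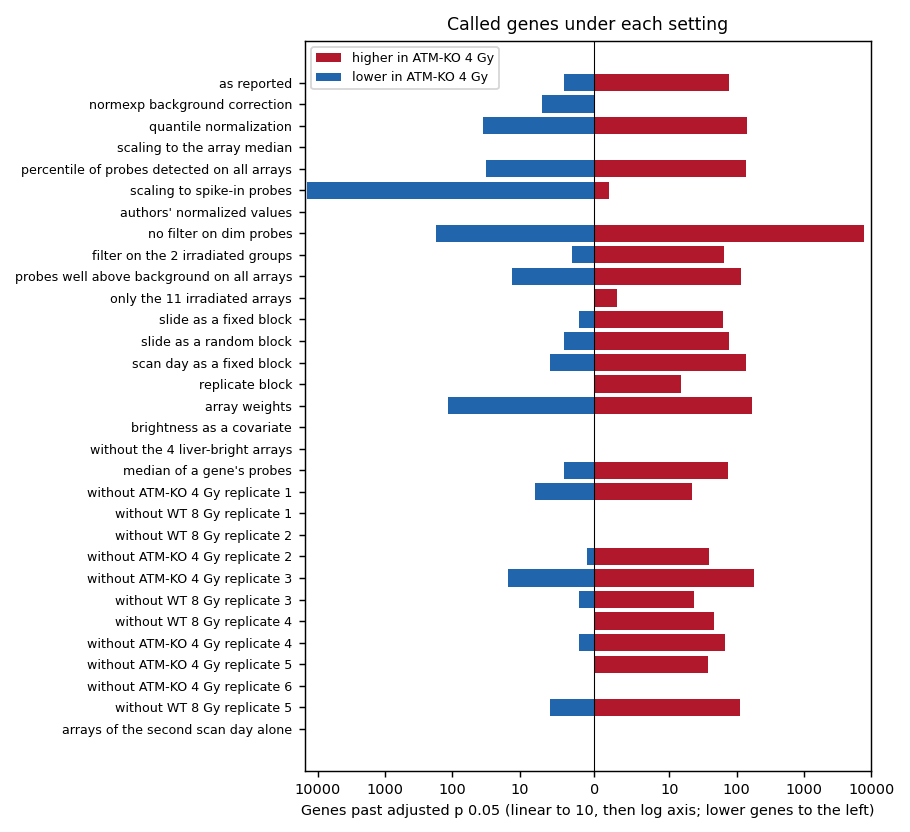
Number of genes past an adjusted p of 0.05 under each setting, higher in ATM-KO 4 Gy to the right and lower to the left (linear to 10, then a log axis). The comparison as reported has 78 higher and 4 lower genes, and 3 of the settings that leave out 1 array have none.

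Genes of red cells had the most calls of any group listed. Of 49 measured genes on lists of erythroid membrane proteins and of haem, iron and maturation proteins, 15 were called higher in ATM-KO 4 Gy and none lower, and 37 had a higher mean. Over all 15162 genes tested 0.514% were called higher and 6961 had a higher mean. The median difference of the 49 erythroid genes was 1.09, against -0.06 for all genes tested and -0.17 for the same 49 genes between ATM-KO 0 Gy and WT 0 Gy. With arrays scaled to spike-in probes the median of the erythroid genes turned to -1.17, which was 1.16 above the median of all genes in that setting. Scaling by 1 constant per array moves all genes alike, so this distance could not change there. The same holds for scaling to the array median or to the probes detected on all arrays. Over all 30 alternatives, these included, the erythroid median stood 0.33 to 1.42 above the median of all genes. These lists were drawn up with earlier results of these data known, so their direction is a description.

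The membrane and skeleton list had 18 measured genes, of which 9 were called higher, against 0.514% of all genes. Slc4a1, the band 3 anion exchanger (probe at chr11:102210256-102210315, mm9), had a lowest, median and highest level of 5.45, 6.51 and 9.36 in ATM-KO 4 Gy blood, against 3.45, 2.81, 4.51, 4.74 and 5.16 in WT 8 Gy blood. The groups did not overlap and the difference was 2.78 ± 0.61 (SE, limma adjusted p = 0.0284). Epb42, protein 4.2 of the membrane skeleton (chr2:120844440-120844499), had -0.70, -0.15 and 1.47 in ATM-KO 4 Gy, against -2.62, -3.53, -1.57, -1.13 and -0.94 in WT 8 Gy. Here too the groups were apart, by a narrow margin, and the difference was 2.09 ± 0.48 (SE, limma adjusted p = 0.0328).

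Tmod1, which caps actin filaments (chr4:46127384-46127441), had -1.26, -0.25 and 0.67 in ATM-KO 4 Gy, against -3.38, -3.51, -2.30, -2.05 and -1.56 in WT 8 Gy, and differed by 2.25 ± 0.44 (SE, limma adjusted p = 0.0219). It was well above background on 5 of 6 ATM-KO 4 Gy arrays and 4 of 5 WT 8 Gy arrays. Epb41, protein 4.1, had 9.02, 10.29 and 10.99 in ATM-KO 4 Gy, against 7.20, 6.66, 7.74, 8.22 and 8.59 in WT 8 Gy, and differed by 2.44 ± 0.56 (SE, limma adjusted p = 0.0328). Neither gene had overlapping groups. Rhd, a subunit of the Rh antigen complex, differed by 2.17 and Add2, beta-adducin, by 2.51, and in both the lowest ATM-KO array, replicate 3, fell within the WT range. Add2 was well above background on 6 of 6 ATM-KO 4 Gy arrays and only 3 of 5 WT 8 Gy arrays. Ank1, the erythroid ankyrin that anchors the skeleton to the membrane, was well above background on 3 of 6 ATM-KO 4 Gy arrays and on none of the 5 WT 8 Gy arrays. It passed the filter only through other groups, among them ATM-KO 0 Gy (5 of 5 arrays) and WT 0 Gy (6 of 6). Its measured means were -1.20 and -4.74 (limma adjusted p = 0.0277). With WT 8 Gy values raised to at least each array's lowest detected level, the ATM-KO 4 Gy mean was 4.78-fold higher. That mean includes ATM-KO arrays not well above background, so 4.78-fold is not a firm lower bound.

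The haem, iron and maturation list had 31 measured genes, 6 of them called higher, against 0.514% of all genes. Slc25a37, mitoferrin-1, which carries iron into mitochondria (chr14:69860020-69860079), had 8.01, 9.23 and 10.02 as lowest, median and highest level in ATM-KO 4 Gy, against 5.78, 5.20, 6.22, 7.02 and 7.25 in WT 8 Gy. The groups did not overlap and the difference was 2.85 ± 0.53 (SE, limma adjusted p = 0.0178). Car2, a carbonic anhydrase of red cells, had 5.31, 5.79 and 7.81 in ATM-KO 4 Gy, against 3.23, 2.70, 3.97, 4.33 and 4.74 in WT 8 Gy, and differed by 2.53 ± 0.48 (SE, limma adjusted p = 0.0178). Bpgm, which makes the red cell metabolite that lowers the oxygen affinity of haemoglobin, differed by 2.12. Ahsp, the chaperone of free alpha-globin, differed by 2.11. All of these had no overlap between groups. Trim10, a protein of terminal erythroid maturation, differed by 2.02, with the lowest ATM-KO array (1.87) below the highest WT array (2.10).

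Alas2, the first enzyme of haem synthesis in red cells, did not pass the test. Its levels were 11.08, 12.37 and 12.59 in ATM-KO 4 Gy, against 10.37, 10.32, 11.42, 11.30 and 11.72 in WT 8 Gy, a difference of 1.12 ± 0.38 (SE, limma adjusted p = 0.207). ATM-KO 4 Gy replicate 3 lay within the WT range and the other 5 ATM-KO arrays above it. The 8 measured globin genes all had higher means in ATM-KO 4 Gy, against 6961 of all 15162 genes, and none was called. The median difference of the globin genes was 1.17, which turned to -1.10 with spike-in scaling and -0.29 with normexp background correction. Globin transcripts were removed before labelling, and Hba-a1 differed by 1.501 ± 0.43 (SE, limma adjusted p = 0.106).

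**Figure D3:**
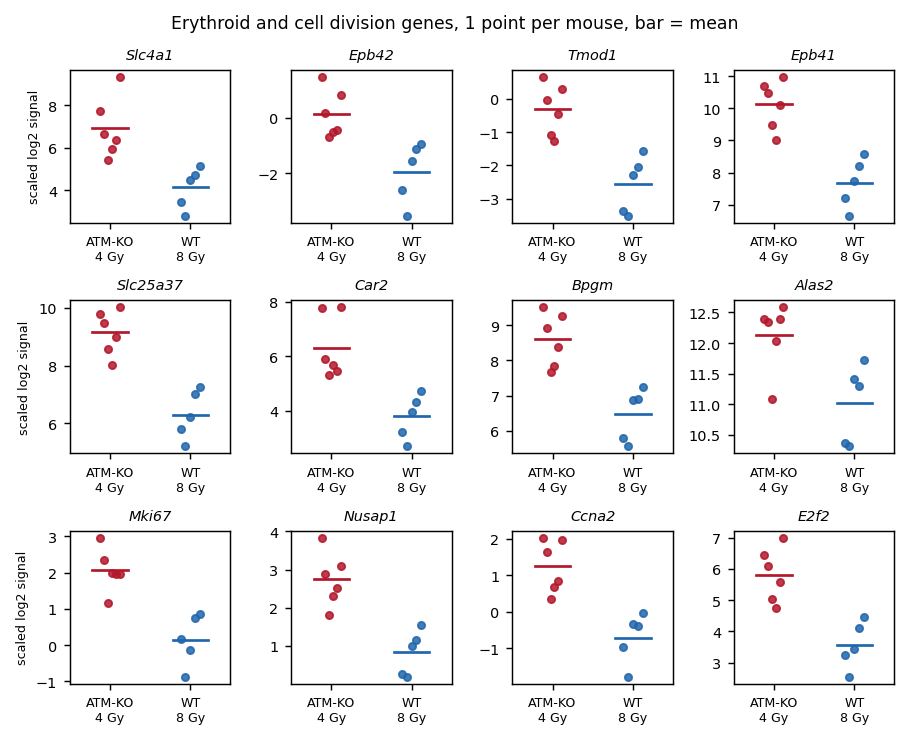
Scaled log2 signal of 8 erythroid genes and 4 cell division genes, 1 point per array, ATM-KO 4 Gy on the left and WT 8 Gy on the right of each panel, with bars at the means. In 11 of the 12 panels all ATM-KO arrays lie above all WT arrays, and in Alas2 the ATM-KO array at 11.08 lies among the WT arrays. The panels are a choice of genes, and the called erythroid genes Rhd, Add2, Ank1 and Trim10, whose groups overlap, are not drawn. Of 49 measured erythroid genes 13 have all ATM-KO arrays above all WT arrays, as have 1.62% of all genes.

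The promoters of 7 of the 15 called erythroid genes were listed in the RefSeq table (GRCm38.p6), and 4 that hold at least 1 of the motifs below are shown as examples, chosen after the motifs were counted. Each sequence holds the 250 bases before the annotated start, 5′ to 3′ on the strand of the gene. Capitals mark every GATAA, the core bound by GATA factors, and every CACCC, the core bound by KLF factors, on either strand (as TTATC or GGGTG on the other one). Epb42 lies at chr2:121036878-121037127 on the minus strand, Rhd at chr4:134864286-134864535, Tmod1 at chr4:46038972-46039221 and Trim10 at chr17:36869324-36869573 on the plus strand.
Epb42: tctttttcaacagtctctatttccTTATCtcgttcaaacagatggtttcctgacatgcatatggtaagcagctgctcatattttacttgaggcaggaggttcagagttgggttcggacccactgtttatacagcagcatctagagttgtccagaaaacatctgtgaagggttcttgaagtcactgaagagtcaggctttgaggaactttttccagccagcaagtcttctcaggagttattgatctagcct
Rhd: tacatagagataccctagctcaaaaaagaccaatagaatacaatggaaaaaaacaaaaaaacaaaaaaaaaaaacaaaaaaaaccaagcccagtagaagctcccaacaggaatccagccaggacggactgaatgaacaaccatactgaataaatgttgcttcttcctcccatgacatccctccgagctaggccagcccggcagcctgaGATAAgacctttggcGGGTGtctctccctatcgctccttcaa
Tmod1: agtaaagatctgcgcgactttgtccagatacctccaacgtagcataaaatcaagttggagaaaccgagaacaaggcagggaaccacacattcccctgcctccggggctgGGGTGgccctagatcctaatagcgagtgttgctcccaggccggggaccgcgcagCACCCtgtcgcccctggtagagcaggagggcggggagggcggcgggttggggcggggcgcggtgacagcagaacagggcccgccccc
Trim10: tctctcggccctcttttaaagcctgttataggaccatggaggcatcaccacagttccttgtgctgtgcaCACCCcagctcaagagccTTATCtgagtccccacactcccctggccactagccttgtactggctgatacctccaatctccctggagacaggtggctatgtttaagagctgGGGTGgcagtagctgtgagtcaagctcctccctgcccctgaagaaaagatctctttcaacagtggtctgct
Rhd and Trim10 hold both motifs, Epb42 GATAA alone and Tmod1 CACCC alone. Of the 3 not shown, Add2 holds CACCC alone, and Bpgm and Epb41 hold neither. Over 27025 promoter windows of the same length, 23.0% hold GATAA, 51.3% hold CACCC and 10.03% hold both. Of the 7 called erythroid genes with a window, 3 hold GATAA, 4 hold CACCC and 2 hold both, so these short motifs are common and their presence is only a description.

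Other called genes with mitochondrial roles in the same tissue were picked out after their values were seen. Glrx5, which acts in iron-sulphur cluster assembly, differed by 1.82, Fam210b, a mitochondrial membrane protein, by 1.84, and Slc25a51, the mitochondrial NAD carrier, by 1.94. In each of these genes every ATM-KO 4 Gy array was above every WT 8 Gy array. Gpx1, the glutathione peroxidase of red cells, also had separate groups, at 10.02 to 11.69 in ATM-KO 4 Gy and 8.99 to 9.62 in WT 8 Gy, and its adjusted p was 0.0796 (limma).

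The erythroid levels moved with array, slide and scan day. The mean level over both lists ran from 2.75 to 4.33 in ATM-KO 4 Gy and from 1.69 to 2.90 in WT 8 Gy, so that only ATM-KO replicate 3 overlapped the WT arrays. The difference of the mean level was 2.42 within day 1 and 0.85 within day 2. It was 1.69 on the slide with replicate 2 of both groups and 0.15 on the slide that held ATM-KO replicate 3 beside WT replicates 3 and 4, and on that slide the haem, iron and maturation genes differed by -0.03. With the slide as a fixed block 13 of the erythroid genes were called higher, and with the scan day as a fixed block 20. The WT arrays with the lowest erythroid levels, replicates 1 and 2, were also the ones with bright liver transcripts and the highest 75th percentiles, at 232 each, and the part of either in the result was not tested. With brightness as a covariate the median of the erythroid genes was 0.53, 0.61 above that of all genes, and none was called. Without the liver-bright arrays the median was 1.13 and none was called.

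Between the unirradiated groups the same genes had differences around 0. No gene was called between ATM-KO 0 Gy and WT 0 Gy (0.0%, limma), with 342 genes at an unadjusted p under 0.05. The 78 higher genes had differences of -1.22 to 1.01 there, with a median of -0.13, and 22 of them were above 0. The test of the difference between the irradiated and the 0 Gy contrast also called no gene (0.0%, limma), with 1296 genes at an unadjusted p under 0.05, so the radiation dependence of single genes is not shown. Against their own 0 Gy groups, the 78 genes had a median change of -1.05 in ATM-KO 4 Gy and of -3.31 in WT 8 Gy, values that share arrays with the direct comparison. In ATM-KO, replicates 1 to 4 at 0 Gy were scanned on day 1 and replicates 2 to 5 at 4 Gy on day 2. Changes from 0 Gy in ATM-KO therefore cannot be fully told apart from scan day. The 78 were chosen on these same irradiated arrays, so their counts in these contrasts are a description. In WT, 77 of the 78 were lower after 8 Gy than at 0 Gy and 64 passed the test, against 51.2% and 6.07% of all genes. In ATM-KO, 57 were lower after 4 Gy than at 0 Gy (62.1% of all genes), and the 5 that passed the test (0.165% of all genes) included Epb42, Nusap1, Slc25a51 and Fam210b. Slc4a1 differed from its 0 Gy group by -1.84 in ATM-KO and by -4.88 in WT, and Tmod1 by -1.69 in ATM-KO and by -3.77 in WT.

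Cell division genes formed a smaller group. Of 15 measured genes of the mitosis list 3 were called higher in ATM-KO 4 Gy, against 0.514% of all genes, and none lower. The median difference of the 15 genes was 0.59 (0.20 at 0 Gy). It turned to -1.67 with spike-in scaling. Its distance of 0.66 above the median of all genes was the same under both scalings, since spike-in scaling moves all genes alike. Mki67, the proliferation antigen Ki-67, had 1.16, 1.98 and 2.96 as lowest, median and highest level in ATM-KO 4 Gy, against 0.16, -0.88, -0.14, 0.74 and 0.86 in WT 8 Gy. The groups were apart and the difference was 1.91 ± 0.46 (SE, limma adjusted p = 0.0411). Nusap1, a spindle protein, differed by 1.91 and Ccna2, cyclin A2, by 1.96, both without overlap. Of genes outside that list, E2f2, a cell-cycle transcription factor, differed by 2.26 and Cdc25b, the phosphatase that activates cyclin-dependent kinases, by 2.04. None of 22 measured DNA replication genes was called, with a median of 0.34. H2ac4, a core histone gene, was the only 1 of 12 measured clustered histone genes to be called, at 2.08 ± 0.42 (SE, limma adjusted p = 0.0248).

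Among the higher genes with the largest differences were several with no erythroid role on the lists. Dapl1 was well above background on 4 of 6 ATM-KO 4 Gy arrays and on none of the WT 8 Gy arrays (limma adjusted p = 0.0249). With WT 8 Gy values raised as for Ank1, its ATM-KO 4 Gy mean was 6.19-fold higher, likewise not a firm lower bound. Nhlrc4 was also called, but it was well above background on 1 of 6 ATM-KO 4 Gy arrays and 0 of 5 WT 8 Gy arrays, and no difference is given for it. Rims1, a presynaptic scaffold protein in neurons, had -0.35, 1.25 and 3.10 in ATM-KO 4 Gy, against -3.24, -2.71, -1.94, -1.10 and -0.77 in WT 8 Gy, and differed by 3.25 ± 0.62 (SE, limma adjusted p = 0.0178). Its groups did not overlap. The unnamed transcript 2610037D02Rik differed by 2.97, Anp32e, a chaperone that removes the histone variant H2A.Z, by 2.89, and Dppa2, a gene of pluripotent cells, by 2.69. Dppa2 was well above background on 6 of 6 ATM-KO 4 Gy arrays and 4 of 5 WT 8 Gy arrays. Apol11b and Apol10b, of the apolipoprotein L family, differed by 2.68 and 2.54, Rnf10, a RING finger protein, by 2.62, and Tent5c, a poly(A) polymerase, by 2.60. All 7 of these genes, like Rims1, were picked from called genes without overlap. That every ATM-KO 4 Gy array was above every WT 8 Gy array in them follows from this choice.

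A small set was above its own 0 Gy level in irradiated ATM-KO blood, a contrast that cannot be fully told apart from scan day. Scanned on day 1 like most ATM-KO 0 Gy arrays, ATM-KO 4 Gy replicate 1 was the lowest of its group for Rims1, at -0.35. Of the 78 higher genes 21 had a higher mean in ATM-KO 4 Gy than in ATM-KO 0 Gy, against 37.9% of all genes, and the 3 that passed the test (0.0725% of all genes) were Rims1, Dcps and the probe that the file calls Rs5-8s1. Rims1 differed from its 0 Gy group by 2.99 in ATM-KO and by -0.69 in WT. Dcps, the scavenger decapping enzyme, differed by 1.63 in ATM-KO and by -0.45 in WT. Between ATM-KO 4 Gy and WT 8 Gy this Dcps probe differed by 1.93, by 0.36 within day 1 and by 2.26 within day 2, and a second kept probe by 0.63 ± 0.54 (SE, limma unadjusted p = 0.256). Rs5-8s1, described in the file as 5.8S ribosomal RNA, had the largest difference of all called genes at 4.04 ± 0.87 (SE, limma adjusted p = 0.0277). Its levels were 2.20 in ATM-KO 4 Gy replicate 1 and 5.08 to 6.78 in the other 5 ATM-KO arrays, against 2.15, 1.13, 0.16, 0.91 and 2.67 in WT 8 Gy. Replicate 1 lay within the WT range. Within day 1 the difference was 0.05 and within day 2 it was 5.19.

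Only 4 genes were called lower in ATM-KO 4 Gy. Rps19bp1, a nucleolar protein that binds ribosomal protein S19, was the 1 without overlap, at 0.04 to 0.90 in ATM-KO 4 Gy and 1.30 to 1.71 in WT 8 Gy, a difference of -1.02 ± 0.24 (SE, limma adjusted p = 0.0366). Qpctl, a Golgi glutaminyl cyclase, was well above background on 2 of 6 ATM-KO 4 Gy arrays and on all 5 WT 8 Gy arrays with a fitted difference of -1.79 ± 0.39 (SE, limma adjusted p = 0.0284). Of the ATM-KO and WT groups WT 8 Gy alone had Qpctl on enough arrays to pass the filter, so this difference is against arrays mostly at background. Rarg, a retinoic acid receptor, differed by -1.31 and the probe A_55_P2021908 on chromosome X, which has no gene name in the file or the reference, by -1.38. Next by p-value but not past the threshold were Tex264, a receptor for breakdown of the endoplasmic reticulum, at -1.23 (limma adjusted p = 0.061), Saa1, an acute phase protein, at -2.04 (0.0675), Dbp, a clock output transcription factor, at -1.84 (0.0676), and Efemp2, an extracellular matrix protein, at -1.38 (0.0686). Tmem86a, an enzyme of plasmalogen breakdown, followed at -1.35 and Trem2, a receptor of macrophages, at -1.30 (limma adjusted p = 0.0863 for both).

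Genes activated by p53 mostly had lower means in ATM-KO 4 Gy and did not pass the test. Of 46 measured p53 targets none was called, and 34 had a lower mean and 12 a higher one. At an unadjusted p under 0.05 (limma) 11 targets were lower and 3 higher. Over all genes tested 8201 had a lower mean and 6961 a higher one, and 779 were lower and 1036 higher at that p. The median was -0.47, against -0.06 for all genes and 0.15 for the same targets at 0 Gy. Its distance from the median of all genes was -1.01 to -0.04 over the 30 alternatives. Those that scale by 1 constant per array could not change this distance. Cdkn1a, the cell-cycle inhibitor p21, had -1.41, 0.72 and 2.16 as lowest, median and highest level in ATM-KO 4 Gy, against 2.16, 1.65, 1.88, 3.27 and 2.23 in WT 8 Gy. Only ATM-KO replicate 1 reached the WT range, and the difference was -1.69 ± 0.51 (SE, limma adjusted p = 0.13). A second kept Cdkn1a probe differed by -0.56 ± 0.58 (SE, limma unadjusted p = 0.342). Phlda3, an inhibitor of Akt signalling, had -0.85, 1.93 and 4.19 in ATM-KO 4 Gy, against 3.89, 3.20, 4.20, 4.52 and 4.50 in WT 8 Gy. ATM-KO replicates 1 and 4, at 4.19 and 3.98, lay within the WT range and the other 4 below it, and the difference was -1.89 ± 0.56 (SE, limma adjusted p = 0.127).

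Other p53 targets had smaller or more scattered differences, and Gadd45a, given further below, had a higher mean in ATM-KO 4 Gy. Ccng1, cyclin G1, differed by -1.30 ± 0.59, Mdm2, the ubiquitin ligase that limits p53, by -0.57 ± 0.37, and Bax, the pore-forming death protein, by -0.45 ± 0.36 (SE). Adjusted p-values of these 3 genes ran from 0.378 to 0.635 (limma). Gdf15, a secreted stress protein, was well above background on 2 of 6 ATM-KO 4 Gy arrays and 5 of 5 WT 8 Gy arrays. Of the ATM-KO and WT groups WT 8 Gy alone had it on enough arrays to pass the filter, and its fitted difference of -2.08 ± 0.91 (SE, limma adjusted p = 0.362) is against a group mostly at background. Plk2, a polo-like kinase, was well above background on 0 of 6 ATM-KO 4 Gy arrays and 4 of 5 WT 8 Gy arrays, and on none of the 0 Gy arrays of either genotype. Among these groups it passed the filter only through WT 8 Gy, so its values are not compared. Against their own 0 Gy groups the p53 targets had a median change of 0.17 in ATM-KO and 0.85 in WT, with the limit of scan day in ATM-KO given above. For Cdkn1a these changes were 1.21 in ATM-KO and 3.86 in WT. Under normexp background correction 7 genes were called, all lower and none among the 82, and they included Phlda3 at -2.20 and Aen, a p53-induced nuclease, at -1.29.

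Interferon-stimulated genes were scattered in ATM-KO 4 Gy blood. None of 28 measured effector genes was called. The mean was lower for 25 of them, against 8201 of all 15162 genes. Their median difference was -0.71 (0.42 at 0 Gy), against -0.06 for all genes. At an unadjusted p under 0.05 (limma) 8 effectors were lower and 3 higher, against 779 and 1036 of all genes. Among the 6 effectors with a probe well above background on all arrays the median was 0.34, which was 0.21 above that of all genes. The mean level over the effector list was 3.23 and 2.70 in ATM-KO 4 Gy replicates 1 and 4 and at 0.28 to 1.0 in the other 4, against 1.73 to 2.53 in WT 8 Gy. Both high ATM-KO arrays were above all WT arrays and the other 4 below all of them. Ifit3, an antiviral translation inhibitor, had 3.69, -0.58, -0.91, 3.47, -0.38 and -0.86 in ATM-KO 4 Gy replicates 1 to 6, against 2.78, 2.10, 2.67, 1.07 and 3.26 in WT 8 Gy. The difference was -1.64 ± 0.77 (SE, limma adjusted p = 0.399). Oas2, which makes the activator of RNase L, differed by -1.74 and Slfn4, a Schlafen gene of myeloid cells, by -1.88, with the same arrays, ATM-KO replicates 1 and 4, within or above the WT range. Isg15, a ubiquitin-like modifier, and Rsad2, the antiviral enzyme viperin, had means in the other direction, at 1.54 ± 0.52 and 1.75 ± 0.54 (SE, limma adjusted p = 0.183 and 0.139).

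**Figure D4:**
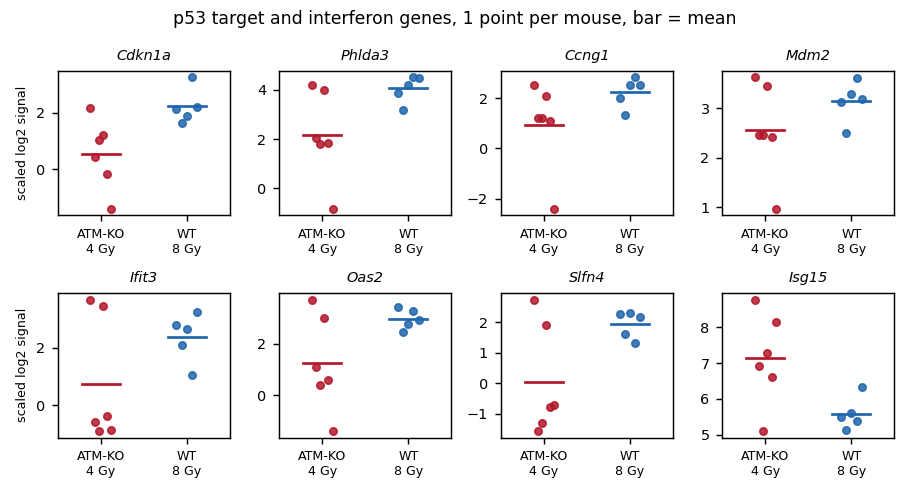
Scaled log2 signal of 4 p53 targets and 4 interferon-stimulated genes, 1 point per array (replicate 1 leftmost), ATM-KO 4 Gy on the left and WT 8 Gy on the right, with bars at the means. In Phlda3, Ifit3, Oas2 and Slfn4, ATM-KO replicates 1 and 4 lie among or above the WT arrays and the other 4 lie lower, and in Isg15 the ATM-KO mean is the higher one.

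B cell genes mostly had higher means in ATM-KO at both doses, with overlapping groups at 0 Gy. None of 23 measured B cell genes was called between ATM-KO 4 Gy and WT 8 Gy, and 21 had a higher mean, against 6961 of all 15162 genes. The B cell median was 1.39, against 1.60 between ATM-KO 0 Gy and WT 0 Gy. With spike-in scaling it turned to -0.88 in irradiated blood. The 10 measured MHC class II genes had a median of 0.87 in irradiated blood and 1.68 at 0 Gy, also with none called, and turned to -1.39 in irradiated blood with spike-in scaling. The mean level of the B cell list ran from 0.17 to 1.60 in ATM-KO 4 Gy and from -1.49 to -0.25 in WT 8 Gy, with WT replicate 3 the lowest. At 0 Gy it ran from 1.54 to 2.47 in ATM-KO and from -1.59 to 2.54 in WT, so the WT range enclosed that of ATM-KO. Cd79b was at -2.38 and -2.81 in WT 0 Gy replicates 3 and 6, and at 4.03 to 6.37 in the other WT 0 Gy arrays. Cd79a, a part of the B cell receptor, differed by 1.03 ± 0.70 and Cd79b, its partner, by 1.39 ± 1.39 (SE, limma adjusted p = 0.572 and 0.706). The Cd79a probe is placed at chr12:53180558-53180617 (mm9), and a second kept Cd79a probe differed by 0.90 ± 0.42 (SE, limma unadjusted p = 0.0411). Vpreb3, a gene of B cell precursors, came closest, at -1.15 to 0.88 in ATM-KO 4 Gy and -2.93 to -2.38 in WT 8 Gy, without overlap and with a difference of 2.23 ± 0.56 (SE, limma adjusted p = 0.061), but it was well above background on 6 of 6 ATM-KO 4 Gy arrays and only 2 of 5 WT 8 Gy arrays. Cd74, the invariant chain of MHC class II, differed by 0.75 ± 0.87 and H2-Ab1 by 0.80 ± 0.81 (SE).

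No gene of the other blood cell lists was called. The median was 0.33 over 25 T cell genes, 0.05 over 21 NK and cytotoxic genes, 0.39 over 22 mature neutrophil genes, -0.42 over 28 monocyte and macrophage genes and -0.44 over 27 platelet and megakaryocyte genes. Cd3e differed by 0.48 ± 0.37, S100a8 by 1.03 ± 0.59 and Pf4 by -0.25 ± 0.49 (SE), with overlapping groups in all 3. Scaling to spike-in probes turned the sign of Cd3e and S100a8, and leaving out ATM-KO 4 Gy replicate 6 turned that of Pf4. Cd14 and Marco of monocytes and macrophages differed by -0.82 ± 0.52 and -1.32 ± 1.03, and Csf1r by 0.50 ± 0.33 (SE). Gadd45a, a stress and p53 target, differed by 1.11 ± 0.38, Hydin by 1.69 ± 0.59 and Nox1 by 2.07 ± 0.70 (SE, limma adjusted p = 0.205, 0.217 and 0.187). A further 50 brightest members of the lists differed by -1.82 to 1.15 and none passed the test. The 36 ribosomal protein genes had a median of 0.25, the 25 respiratory chain genes -0.49 and the 23 proteasome genes -0.36. The 17 measured hepatocyte genes had a median of -2.30 in irradiated blood and -2.80 at 0 Gy, with mean levels of -1.90 to 7.59 in ATM-KO 4 Gy and -0.63 to 8.16 in WT 8 Gy. Within 10 Mb of the Atm probes on chromosome 9, 179 genes were tested and none was called in the irradiated or the 0 Gy contrast, with 17 and 4 at an unadjusted p under 0.05.

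**Figure D5:**
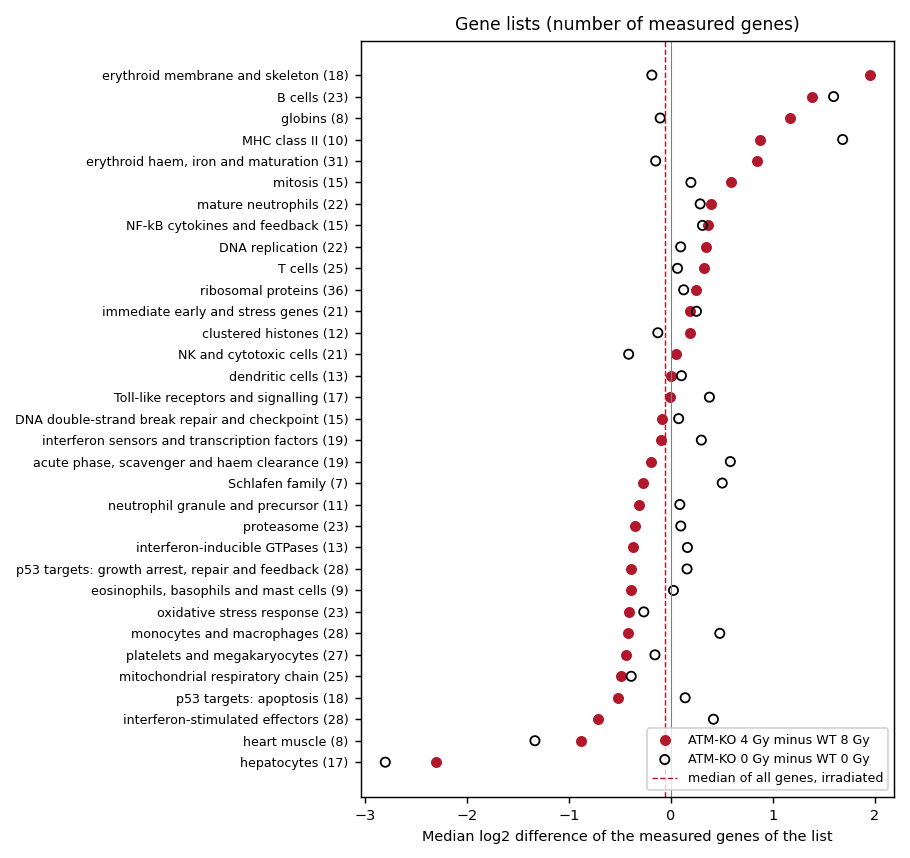
Median log2 difference of the measured genes of each list, for ATM-KO 4 Gy minus WT 8 Gy (filled) and ATM-KO 0 Gy minus WT 0 Gy (open), with the number of measured genes in brackets and a dashed line at the median of all genes in irradiated blood. Erythroid lists lie between -0.19 and -0.15 at 0 Gy and at 0.85 and 1.95 in irradiated blood, and B cell and MHC class II lists lie to the right in both.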

How the data were processed

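The deposited scanner files give the processed signal intensity of each spot in 1 colour (Cy3), after background subtraction by the authors' Agilent Feature Extraction software (version 12.0.2 per the submitters' processing notes, 11.5.1.1 per the file headers), with probe positions on mm9. The authors' deposited log2 values, used as an alternative, equal the log2 processed signal plus a constant per array for 98.1% to 99.1% of probes within 0.01; array medians are 5.51 to 6.44, and how the constant was chosen is unknown. Each replicate is a separate mouse per the series design, and the number of arrays limits precision.

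Control and outlier spots were left out, spots of a probe averaged, and log2 signals reduced by each array's 75th percentile. A probe was kept where 4 or more arrays of some group had it well above background (18373 of 39429), and the brightest kept probe by mean level over all arrays stood for its gene. Genes were named through RefSeq accessions and symbols where these matched. All 32 arrays entered 1 limma fit (limma 3.58.1, R 4.3.3) without a block, with Benjamini-Hochberg adjustment over 15162 genes and a threshold of 0.05; 264 genes were kept only through a group outside the irradiated pair. Percentages of probes were compared by an exact permutation test (scipy 1.17.1, Python 3.11.15), and figures were drawn with matplotlib 3.10.9. Fits were tested on simulated data.

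Named genes were the called genes with a reference symbol and no overlap of the groups, the 15 largest each way, with the lower direction filled to 10 by p-value; from each list, up to 4 called members or else the 2 brightest; and a set named whatever its values (among them Cdkn1a, Phlda3, Slc4a1, Alas2, Mki67 and Cd79a). Rs5-8s1, the chromosome X probe and the genes Cd74, Cdc25b, Dcps, E2f2, Epb41, Fam210b, Glrx5, Plk2, Rhd, Rsad2, Slc25a51, Tmod1, Trim10 and Aen were named after their values were seen. The comparison, the gene lists and the alternatives were chosen with earlier results of these data known. Results for arrays of the second scan day alone, and for leaving out each array from the percentage of probes, were added after seeing the data. Some genes that the rule picks are not reported here.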

Additional observations from a re-analysis of the deposited data

Results flagged for a closer look

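In 8 of 130 groups of 5 or 6 arrays of a named gene, 1 array stood far from the rest of its group, and chance gives about 5% of groups such a gap. In ATM-KO 4 Gy, Alas2 was at 11.08 in replicate 3 (12.04 to 12.59 in the others), and the 5.8S ribosomal RNA probe Rs5-8s1 at 2.20 in replicate 1 (5.08 to 6.78). Dppa2 was at 2.626 in ATM-KO 4 Gy replicate 6 (-0.83 to 0.41 in the others), and Ccng1 at -2.408 in the same replicate (1.08 to 2.51). The B cell genes Cd74 and Cd79b were at 4.958 and 5.724 in ATM-KO 4 Gy replicate 2, where the others reached 3.65 and 3.91. In WT 8 Gy replicate 3 Cd74 and Cd79b were at 1.484 and -0.5726, where the others were at least 3.01 and 2.70.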

How the results depend on the processing

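The 82 calls (78 higher, 4 lower) depended on the processing, and where no construction of a setting shows why, the cause was not tested. Calls numbered 7 (0 higher, 7 lower) with normexp background correction, 176 (141 and 35) with quantile normalization, 169 (138 and 31) with the percentile of probes detected on all arrays, and 14355 (2 and 14353) with spike-in scaling. They numbered 7938 (7761 and 177) with no filter on dim probes, 130 (13 lower) among probes well above background on all arrays, 143 (137 higher) with the scan day and 289 (172 and 117) with array weights. With the slide as a fixed block 2 genes were lower. Only the 11 irradiated arrays, which leave fewer samples for the spread, gave 3 calls (3 and 0). There were 0 calls with scaling to the array median, the authors' normalized values, brightness as a covariate, the arrays of the second scan day alone, or without the liver-bright arrays, with 934 to 2546 genes at an unadjusted p under 0.05 (limma). Replicate numbers did not pair the samples (correlations of same-numbered arrays -0.60 to 0.29), and with the replicate number as a block 15 genes were called (15 higher, 0 lower). Leaving out 1 array gave 0 to 197 calls, 0 to 182 higher and 0 to 15 lower. The difference of the irradiated from the 0 Gy contrast called 13146 genes with spike-in scaling, 36 with the slide as a fixed block and 0 without any 1 array; the 0 Gy contrast called 0 without any 1 array. Leaving out 1 array moved the difference in probes well above background between -19.3 and -13.6 points (exact permutation p from 0.00794 to 0.0191).

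Of 65 reported genes 37 were past the threshold, and of these 16 reversed with spike-in scaling alone and 21 in none of the alternatives in which they were tested (27 to 30 for each gene). With spike-in scaling the reversed values were, for erythroid genes, Epb42 -0.18, Rhd -0.0922, Tmod1 -0.0176, Bpgm -0.15, Ahsp -0.16, Trim10 -0.24, Alas2 -1.15, Hba-a1 -0.77, Gpx1 -0.80, Glrx5 -0.45, Fam210b -0.43 and Slc25a51 -0.33. For cell division and other genes they were Mki67 -0.35, Nusap1 -0.35, Ccna2 -0.31, E2f2 -0.0097, Cdc25b -0.23, H2ac4 -0.18, Dcps -0.34, Isg15 -0.72, Rsad2 -0.52, Cd79a -1.23, Cd79b -0.88, Vpreb3 -0.0353, Cd74 -1.51, H2-Ab1 -1.47, Cd3e -1.79 and S100a8 -1.24. With normexp they were Alas2 -0.54, Cd74 -0.48, H2-Ab1 -0.58, Cd3e -0.70, S100a8 -0.72, Isg15 -0.0285, Rsad2 -0.0589, Gpx1 -0.0632, Hba-a1 -0.0588 and Plk2 0.54. With brightness as a covariate they were Alas2 -0.00017, Cd3e -0.20 and Alb 1.56. Pf4 was 0.13 without ATM-KO 4 Gy replicate 6 and 0.0362 on the second scan day alone. The interferon effector median less that of all genes was 0.21 among probes well above background on all arrays.

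The irradiated groups differ in brightness, so dim genes are bounded less tightly in ATM-KO 4 Gy, where the lowest detected level was -3.11 to -0.72, than in WT 8 Gy, where it was -4.87 to -2.70. Values near background thus mostly sat higher on the scaled axis in ATM-KO 4 Gy, the direction of 78 of the 82 calls. With no filter on dim probes 7761 genes were higher and 177 lower, with the median of all genes at 0.56. The part of this in the 78 calls was not tested. The normexp offset of 50 lies within the range of the 75th percentile of the ATM-KO 4 Gy arrays, 17.7 to 111.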
